A study of Homo sapiens with 6 samples.

Results

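Expression of ARPIN, an inhibitor of the ARP2/3 complex, and of the 9 genes that encode subunits of the complex was examined in RNA sequencing of WM164, an established human melanoma cell line. These 10 genes, of 58870 in the count table, were found by their gene names. The subunits were listed by their membership in the complex, whereas ARPIN was chosen by its measured rise in this same comparison, so its change is given as a description with no test. The study set 3 libraries of cells overexpressing GFP, the control protein, against 3 libraries of cells overexpressing T-MGM, in which MAFG is tethered by a flexible linker downstream of the melanocyte isoform M-MITF. Both proteins were delivered by a lentiviral vector with an EF1α promoter and blasticidin selection, and all cells were grown in RPMI with 5% serum. Both sets were made in the 1 line, so the spread between libraries says nothing of other melanomas, and no source used here says whether replicates were separate cultures. If they were not, p-values measure technical spread alone.

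Total counts were 35057239 to 38738065 in GFP and 44577774 to 59250663 in T-MGM-labelled libraries. All 7 melanocytic markers were expressed, at 3401 to 54162 mean normalized counts in GFP and 2051 to 58382 in T-MGM-labelled libraries, whereas 5 of 11 markers of blood, endothelial, epithelial and fibroblast cells had at most 3 counts in every library and the 11 together reached 1.74 to 2.10 TPM in GFP and 1.33 to 2.07 TPM in T-MGM-labelled libraries. Among those 11, LYZ fell by 1.32 on the log2 scale and PDGFRA rose, from 54.9 ± 16.2 to 155 ± 1.91 normalized counts, and their part in the results was not tested. Of the melanocytic markers 3 passed an adjusted p of 0.05 upwards and 4 downwards, beside 19.2% of all genes tested in each direction. Passing depends on expression level, which is high for these markers, so nothing is read from this count. DCT and TYR, enzymes of pigment synthesis, fell by 2.49 and 0.35 on the log2 scale, the melanosome gene MLANA by 0.68 and S100B by 0.21. PMEL, MITF and SOX10 rose, by 0.05, 0.08 and 0.11. The part of these changes in the results was likewise not tested. The genes held by the construct moved little, with MAFG averaging 2458 (SD 70.3) normalized counts under GFP against 2358 (SD 34.9), and MITF 19161 (SD 46.9) against 20269 (SD 165, n = 3 each). The counts of these 2 genes therefore do not show the label of the T-MGM libraries, and every direction given here rests on that label.

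The ARP2/3 complex binds the side of an actin filament and starts a new filament from it as a branch, which builds the branched networks behind the leading edge of a crawling cell and on endosomes. ACTR2 and ACTR3 encode the actin-related proteins that form the base of the branch, and the ARPC genes encode the subunits that hold them, with ARPC1A and ARPC1B, and ARPC5 and ARPC5L, as alternative versions of the same position. WASP family proteins such as WAVE, acting below the GTPase RAC1, switch the complex on, while ARPIN carries a similar acidic tail, binds the complex and inhibits it at lamellipodia.

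The promoter of ARPIN is shown first because the largest change among these genes was there and because ARPIN shares it with another gene. ARPIN (ENSG00000242498.8) lies on the minus strand of chromosome 15, 89895006 to 89912952 (GRCh38), and the 250 bases before its start, at chr15:89912953-89913202, are the same window that RefSeq gives for the read-through gene ARPIN-AP3S2. The sequence below is from RefSeq on GRCh38.p14, written 5′ to 3′ on the minus strand with CpG dinucleotides in capitals.

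ARPIN: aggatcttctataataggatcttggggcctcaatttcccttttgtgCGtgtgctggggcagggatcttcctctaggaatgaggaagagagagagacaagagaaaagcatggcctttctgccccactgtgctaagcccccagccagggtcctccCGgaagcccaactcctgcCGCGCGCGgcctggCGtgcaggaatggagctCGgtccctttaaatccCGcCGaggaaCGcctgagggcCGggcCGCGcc

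The window held 14 CpG dinucleotides, against a median of 11 over 35116 such windows of the genome, of which 55.2% held fewer, and its GC content was 60.4% against a median of 58%. The letters of an E-box bound by MITF-type factors (CATGTG, present in 9.42% of windows, or CACGTG, in 6.34%), a half-site for MAF proteins (TGCTGA, in 14.0%) and an AP-1 type site (TGACTCA or TGAGTCA, which are the same site read on either strand, in 4.2% of them), searched on both strands, were not found in it. None was found either in the windows of the 8 subunits that had an entry in the table, among which ACTR3 had 3 and ARPC2 had 2. Such a search says only that these letters are not in these windows.

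ARPIN was close to undetected in GFP and readily detected in every T-MGM-labelled library. Its counts were 1, 6 and 1 in GFP replicates 1 to 3 and 430, 439 and 517 in T-MGM replicates 1 to 3. Scaled for depth, these were 1.20, 6.50 and 1.14 against 392, 428 and 382 normalized counts. The groups did not overlap, but neither did they for 46.8% of the 19135 genes tested. The fitted log2 fold change was 7.04 (SE 0.52, 95% limits 6.01 to 8.07), a 132-fold rise with limits of 64.7 and 269. Counted over whole groups, 8 reads stood against 1386, a depth-scaled ratio of 126 with a 95% interval of 64.0 to 293 that covers counting error only. The size of the fold therefore rested on very few GFP reads, 6 of them in 1 library, and without GFP replicate 2 the log2 fold change was 8.42. Over all genes tested, 3.26% were over 2-fold higher with an adjusted p at or under 0.05 and 1.36% were over 2-fold lower, and nothing is read from these shares for ARPIN, which was chosen by its rise. From bulk RNA, more cells with ARPIN transcripts and more transcripts in each cell cannot be told apart.

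Part of this change could not be separated from that of the read-through gene. ARPIN-AP3S2 (ENSG00000250021.7; 89834308 to 89912882) starts in ARPIN and runs into AP3S2, which encodes the small sigma subunit of the AP-3 adaptor that sorts cargo to lysosomes and melanosomes. Of its 2673 exonic bases only 1 belongs to it alone in GENCODE release 44, whereas 7871 of the 8590 exonic bases of ARPIN are its own on that strand. This gene had 48.0, 195 and 25.1 normalized counts in GFP and 464, 480 and 494 in T-MGM-labelled libraries, a log2 fold change of 2.42 (SE 0.82) that was 3.72 without GFP replicate 2. The groups did not overlap, and the second GFP library was again the highest of its group. As ARPIN-AP3S2 shares nearly all its exons with its neighbours, its count depends on how reads were divided among the genes, and no test is given for it.

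AP3S2 (89830599 to 89894638) moved the other way, from 1198, 1048 and 1181 normalized counts in GFP to 894, 927 and 942 in T-MGM-labelled libraries. Its log2 fold change was -0.31 (SE 0.06, DESeq2 adjusted p = 5.69e-06), but in TPM values it was -0.10 (limma adjusted p = 0.414) with a pseudocount of 1. The library with the lowest AP3S2 count in GFP was the one with the highest ARPIN-AP3S2 count. Added together, these 2 genes had 1246, 1243 and 1206 normalized counts in GFP, an SD of 22.1, although the SDs of the parts were 82.1 and 92.1. In the sum the T-MGM-labelled libraries were higher, at 1358, 1407 and 1436, and the fall of AP3S2 was not present in the sum.

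**Figure D1:**
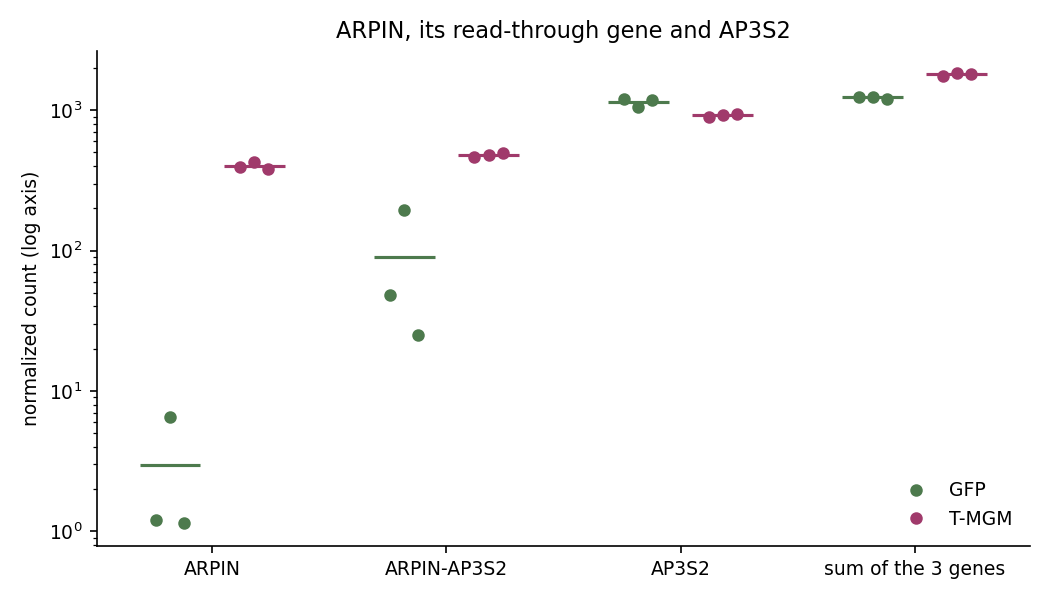
Normalized counts (vertical log axis) of ARPIN, the read-through gene ARPIN-AP3S2, AP3S2 and the sum of the 3 genes. Each point is 1 library, with GFP in green and T-MGM-labelled libraries in purple, and each bar is the mean of 3. The separation is widest for ARPIN (means 2.95 and 401), and the sum moves from 1235 to 1801.

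Over ARPIN and ARPIN-AP3S2 together there were 49.2, 201 and 26.3 normalized counts in GFP and 857, 908 and 876 in T-MGM-labelled libraries. The log2 fold change was 3.25 (SE 0.82). How reads were divided between this pair does not alter their sum. It still depends on how reads were divided between ARPIN-AP3S2 and AP3S2. Over all 3 genes the counts were 1247, 1249 and 1207 against 1751, 1835 and 1818, a ratio of means of 1.46. The T-MGM-labelled libraries were higher in each sum, by a ratio of means of 1.14 for ARPIN-AP3S2 plus AP3S2 and, in TPM, of 1.37 for the whole locus, against a fitted 132-fold for ARPIN alone. The share of ARPIN-AP3S2 in the reads of ARPIN and ARPIN-AP3S2 was 96.7% ± 0.959 in GFP and 54.5% ± 1.82 in T-MGM-labelled libraries (SD, n = 3 each).

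Per length of transcript, ARPIN remained the lowest of the 10 genes in both groups. It was listed at 0, 0.02 and 0.01 TPM in GFP and at 1.23, 1.33 and 1.11 TPM in T-MGM-labelled libraries. The lowest subunit there, ARPC5L, had a mean of 15.9 TPM, which was 13.0 times the mean of ARPIN, and the median subunit was at 65.5 times that mean. Taken as its own gene, ARPIN thus rose from near 0 to a level well under that of every subunit gene of the complex it inhibits. With ARPIN-AP3S2 added, from which its reads could not be fully separated, the level was 0.41, 1.71 and 0.23 TPM in GFP. The same sum was 4.86, 5.11 and 5.01 TPM in T-MGM-labelled libraries, nearer to ARPC5L but still under it. These are transcript levels, and protein was not measured in these files.

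The subunits were all well expressed in GFP, from 20.3 TPM for ARPC5L to 212 TPM for ARPC1B, the highest of them. ARPC3 at 166 TPM and ARPC2 at 142 TPM, which holds the complex to the mother filament, came next. ACTR3 at 103 TPM and ARPC1A at 101 TPM overlapped between libraries and had no clear order, and ACTR2 followed at 63.6 TPM. ARPC5 at 33.0, ARPC4 at 27.8 and ARPC5L at 20.3 TPM were lowest, and apart from ACTR3 and ARPC1A no neighbours in this order overlapped. In T-MGM-labelled libraries no neighbours overlapped, and ARPC4 at 34.0 TPM stood above ARPC5 at 27.5 TPM, the reverse of their order in GFP.

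**Figure D2:**
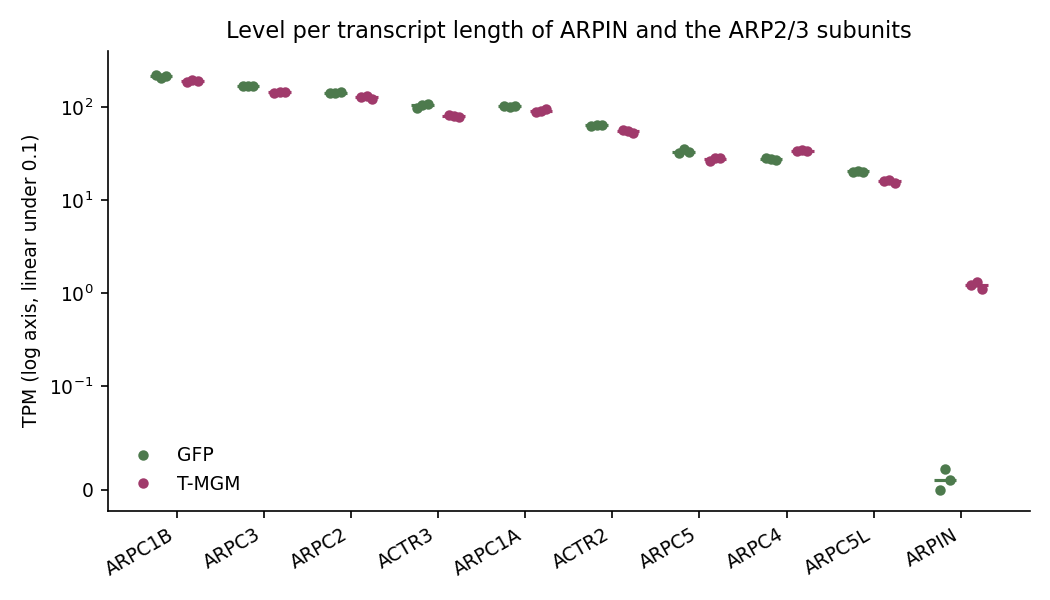
TPM (vertical axis, logarithmic above 0.1 and linear below) of ARPIN and the 9 subunits in each library, ordered by the GFP mean. Points are libraries, GFP in green and T-MGM-labelled in purple, and bars are means of 3. ARPIN moves from 0.01 to 1.22 TPM while the subunits stay between 15.9 and 212 TPM.

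Against the change of ARPIN, the subunits changed little. None of the 9 was over 2-fold in either direction, and their log2 fold changes ran from -0.20 to 0.32 with a median of -0.08, beside a median of -0.0027 over all genes tested. By DESeq2, 6 of the 9 passed an adjusted p of 0.05 over all genes, 1 higher and 5 lower, where 19.2% of all genes passed upwards and 19.2% downwards. The same 6 had groups that did not overlap, as did 46.8% of all genes tested. With SEs of 0.02 to 0.05 on the log2 scale, changes of a few percent could pass at this depth.

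ARPC4, which joins ARPC2 in the core that anchors the complex, was the only subunit that rose. It had 1652, 1608 and 1555 normalized counts in GFP and 2081, 1942 and 1986 in T-MGM-labelled libraries, with every one of the latter above every one of the former. The log2 fold change was 0.32 (SE 0.05, DESeq2 adjusted p = 3.44e-11), an increase of 24.8%. ARPC4 shares exons with the read-through gene ARPC4-TTLL3, which was at 37.2 to 102 normalized counts in GFP and 5.90 to 90.7 in T-MGM-labelled libraries and overlapped between groups. Added to it, ARPC4 went from 1690, 1666 and 1656 to 2141, 2032 and 1992, and the rise was also present in the sum. TADA3, a histone acetyltransferase adaptor gene that overlaps ARPC4 on the other strand, was also higher (0.49, DESeq2 adjusted p = 1.55e-31), and the sources differ on whether the libraries kept strand. The 74 expressed genes (a mean of at least 50 normalized counts) within 10 Mb of ARPC4 had a median log2 fold change of 0.23.

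ARPC5L, the less abundant alternative to ARPC5, fell from 1270, 1301 and 1261 to 1123, 1131 and 1092 normalized counts. The fitted log2 change, -0.20 with an SE of 0.05 (DESeq2 adjusted p = 0.000983), went against a median of 0.061 for the 146 expressed genes within 10 Mb. ARPC5 fell by a like amount, from 3135, 3298 and 3146 to 2768, 2785 and 2814 (log2 fold change -0.20, SE 0.03, DESeq2 adjusted p = 1.23e-07), where the 53 genes around it had a median of -0.17. Neither pair of groups overlapped. The share of ARPC5L in the TPM of this pair was 38.1% ± 0.816 in GFP and 36.7% ± 1.47 in T-MGM-labelled libraries, which overlapped.

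The actin-related proteins were both slightly lower. ACTR3 went from 10580, 10341 and 10699 to 9491, 9393 and 9130 normalized counts (log2 fold change -0.18, SE 0.02, DESeq2 adjusted p = 4.02e-15), and the 58 expressed genes within 10 Mb had a median of -0.23. ACTR2 went from 12043, 11928 and 12147 to 11690, 11353 and 11188 (-0.08, SE 0.02, DESeq2 adjusted p = 0.000435). Neither gene overlapped between groups. ACTR3B, a close relative of ACTR3 with 3.16% ± 0.243 of the counts of the pair in GFP, fell by 0.31 in log2 units (SE 0.13, DESeq2 adjusted p = 0.0372), which did not pass without GFP replicate 1 (0.0781) or 3 (0.228) or T-MGM replicate 1 (0.0709) or 2 (0.267). ARPC3, a small subunit that contacts ACTR3, had 6232, 6161 and 6165 normalized counts in GFP and 5786, 5791 and 5976 in T-MGM-labelled libraries (-0.08, SE 0.02, DESeq2 adjusted p = 0.00486).

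The 3 remaining subunits did not pass and overlapped between groups. ARPC1A was at 6837 to 6913 normalized counts in GFP and 6683 to 7054 in T-MGM-labelled libraries, ARPC1B at 9161 to 9457 and 8992 to 9486, and ARPC2 at 7440 to 7569 and 7295 to 7550. The 95% limits of their log2 fold changes were -0.046 to 0.051 for ARPC1A, -0.045 to 0.045 for ARPC1B and -0.069 to 0.021 for ARPC2. ARPC1B made up 67.7% ± 0.752 of the TPM of ARPC1A and ARPC1B in GFP and 67.5% ± 0.699 in T-MGM-labelled libraries. For neither alternative pair is a p given, since an exact permutation test of 3 libraries against 3 cannot go below 0.1. The expressed genes within 10 Mb had a median log2 fold change of -0.20 around ARPC2 and of -0.086 around ARPC1A and ARPC1B, and, for the subunits that fell least, 0.023 around ACTR2 and -0.042 around ARPC3. An uncharacterised gene that spans both loci on their strand, AC004922.1, had 84 to 286 counts and was higher (0.72, DESeq2 adjusted p = 0.000426). How its reads were divided from theirs is not known. Only 855 of 2065 exonic bases of ARPC1A, and 4289 of 5581 of ARPC1B, are their own on that strand.

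The subunits that fell, ARPC5L aside, have transcripts of low GC content. These were 37.5% GC for ACTR2, 35% for ACTR3, 38.2% for ARPC3 and 39.6% for ARPC5, and the 2269 expressed genes under 40% GC had a median log2 fold change of -0.14, while the 5365 genes over 50% GC had a median of 0.10. After offsets for GC content and transcript length, ACTR3 was at -0.0012 (DESeq2 adjusted p = 0.977), ARPC5 at -0.068 (0.126) and ARPC3 at 0.020 (0.601), and ACTR2 passed in the other direction at 0.078 (0.000474). ARPC4 and ARPC5L, at 54.7% and 55.8% GC, kept their direction and passed, at 0.21 (DESeq2 adjusted p = 2.03e-05) and -0.30 (2.31e-07). ARPC1B then passed downwards at -0.11 (3.19e-06), and the count of passing subunits was 4, with 2 higher and 2 lower. For that fit the shares of all genes that passed are not given here. Of the subunits, ARPC4 and ARPC5L alone passed in the same direction under the 10 other settings and 6 left-out libraries tried.

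**Figure D3:**
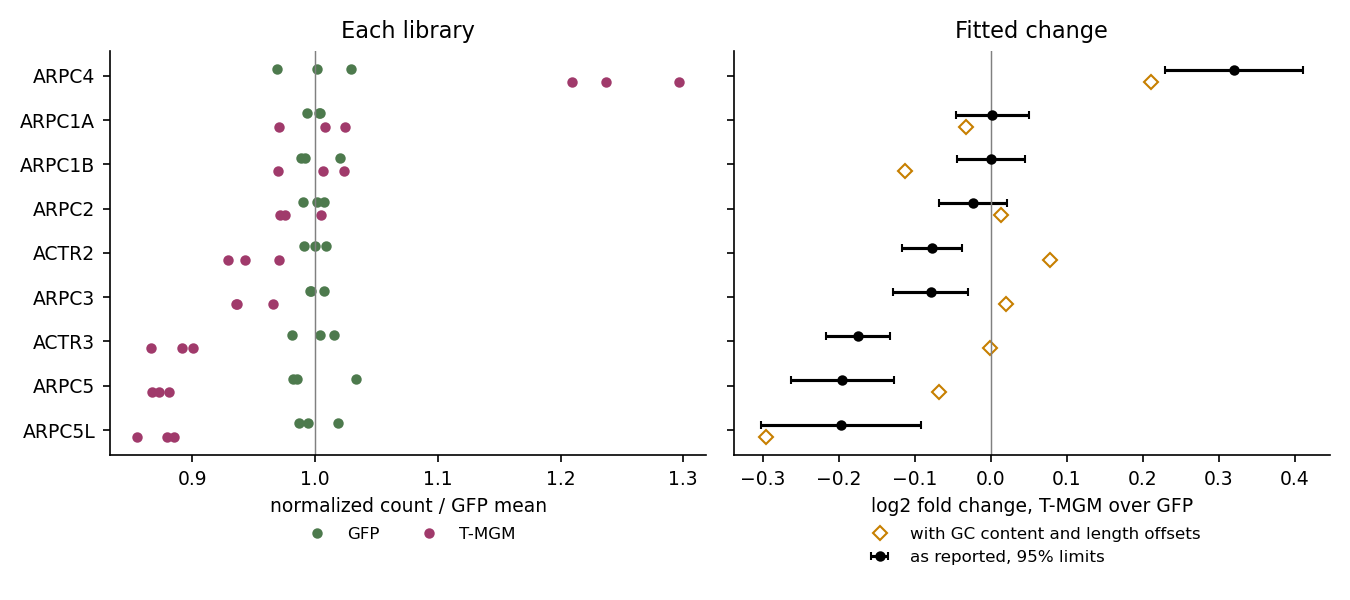
On the left, normalized counts of each subunit divided by its GFP mean, with 1 point for each library (GFP in green, T-MGM-labelled in purple). On the right, the log2 fold change with 95% limits (black) and the value after offsets for GC content and length (open diamonds). ARPC4 lies to the right (0.32) and ARPC5L to the left (-0.20) in both, while ACTR3, ARPC3 and ACTR2 move to or past 0 with the offsets.

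Summed over the 9 subunits, normalized counts were 58507 ± 360 in GFP and 56059 ± 271 in T-MGM-labelled libraries (SD, n = 3 each), a ratio of 0.958. The sum in TPM fell further, from 871 ± 5.74 to 763 ± 8.59, a ratio of 0.876, but on the log2(TPM + 1) scale the median of all expressed genes was itself at -0.13. On that scale all 9 subunits passed in limma, ARPC4 upwards and 8 downwards. The shares of all genes that passed in that fit are not given here, so nothing is read from this count for the subunits.

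Other genes were then compared in 11 lists by function, 136 genes in all, of which 10 lists held actin regulators and 1 the 7 subunits of the AP-3 adaptor. Of the 123 with an adjusted p, 42 passed upwards and 34 downwards, with a median log2 fold change of 0.01. The 76 that passed made up 61.8% of them, beside 19.2% of all genes in each direction. These shares were not matched for expression level, on which passing depends, so no preference for the listed genes is read from them. Over 2-fold, 6 were higher and 2 lower. Values are given below by role for the genes over 2-fold and for passing genes of smallest p in their list, not for every large change.

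Among 11 inhibitors of the complex and proteins that remove branches, 3 passed upwards and 3 downwards of 10 with an adjusted p, with a median log2 fold change of 0.02. CORO2B, a coronin, rose from 1450 ± 91.4 to 2390 ± 113 normalized counts (log2 fold change 0.72, SE 0.05, DESeq2 adjusted p = 1.91e-45). GMFG, a glia maturation factor that takes branches apart, rose from a low level, with 9.59, 22.7 and 17.1 normalized counts in GFP and 64.8, 67.3 and 43.5 in T-MGM-labelled libraries (1.81, SE 0.38, DESeq2 adjusted p = 9.79e-06). Its relative GMFB fell by 0.25 on the log2 scale (DESeq2 adjusted p = 3.41e-10), and CORO1B rose by 0.22 (3.76e-05), but with offsets for GC content and length neither passed. Of the inhibitors that act on the complex directly and were named here for that role after their values were seen, PICK1 was at 0.10 (DESeq2 adjusted p = 0.547) and AP1AR fell by 0.28 (0.000436), which did not pass with the offsets (0.106) or in the filtered TPM fit (limma adjusted p = 0.0935). PICK1 was below 0 with the offsets and in TPM. The PICK1 groups overlapped and the AP1AR groups did not.

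Among 14 activators of the WASP family and their partners, 5 passed upwards and 2 downwards of 13 with an adjusted p. WIPF1, which encodes the partner that stabilises WASP proteins, had the largest fall among the listed genes with an adjusted p and a mean of at least 100 normalized counts, from 11059, 11253 and 11540 to 3529, 3415 and 3438 normalized counts. The groups were far apart (log2 fold change -1.71, SE 0.03), and the DESeq2 adjusted p was below the smallest number the software can hold. Its relative WIPF2 rose by 0.22 (DESeq2 adjusted p = 4.98e-06) and NCKIPSD, an adaptor of N-WASP, rose from 1364 ± 23.7 to 2299 ± 53.1 (0.75, DESeq2 adjusted p = 1.87e-61).

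In the WAVE complex, which acts on ARP2/3 at lamellipodia, 3 genes passed upwards and 3 downwards of 7. CYFIP2 rose from 198 ± 15.8 to 377 ± 14.0 normalized counts (0.93, DESeq2 adjusted p = 5.29e-14), while NCKAP1 and ABI2 fell by 0.28 (2.72e-40) and 0.23 (2.72e-19). ABI3 rose from 5.78 ± 3.33 to 24.9 ± 8.48 normalized counts (2.11, SE 0.61, DESeq2 adjusted p = 0.00207), close to the limit of detection. The 5 genes of the WASH complex, which acts at endosomes, split into WASHC5 higher (0.27, DESeq2 adjusted p = 6.06e-16), WASHC2A (-0.18, 2.52e-05) and WASHC4 (-0.12, 0.0178) lower, and 2 that did not pass.

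Upstream of the WAVE complex, RAC1 and RAC3 were named for their role after their values were seen. RAC1 had 13697, 13522 and 13002 normalized counts in GFP and 11851, 12566 and 12838 in T-MGM-labelled libraries, groups that did not overlap (-0.11, SE 0.04, DESeq2 adjusted p = 0.0182). It did not pass without GFP replicate 1 (0.108) or 2 (0.0967) or T-MGM replicate 2 (0.0537), nor with the replicate number as a block (0.0886). RAC3 was at -0.09 (DESeq2 adjusted p = 0.696) and overlapped between groups. RAC2, the blood cell form of RAC, rose from 26.4, 32.5 and 34.3 to 128, 107 and 82.6 normalized counts (1.76, SE 0.28, DESeq2 adjusted p = 1.24e-09), with the blood markers of this line as given above. Of the exchange factors that load RAC with GTP, TIAM2 rose by 0.92 (2.93e-45) and PREX1 fell by 0.52 (2.22e-124).

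Formins and other nucleators build unbranched filaments, the alternative to ARP2/3, and 8 of 17 passed upwards and 6 downwards. INF2 rose from 773 ± 24.2 to 1366 ± 141 normalized counts (0.82, DESeq2 adjusted p = 2.03e-29), DAAM2 rose by 0.18 (2.88e-21) and FMNL2 fell by 0.36 (1.62e-48). At low levels, COBL (1.15, DESeq2 adjusted p = 3.56e-05), FHOD3 (1.15, 9.13e-05) and FMNL1 (2.73, SE 0.65, 0.000134) were over 2-fold higher, FMNL1 from 4.45 ± 3.65 to 30.1 ± 15.1 normalized counts. LMOD3 passed at its threshold with 8.39, 6.50 and 1.14 against 0, 0.976 and 0 normalized counts, too few for a fold.

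Among the proteins that turn filaments over, cap them or bind monomers, 7 of 26 passed upwards and 9 downwards, and the 3 with the smallest p rose. These were the monomer binders TMSB10 (0.45, DESeq2 adjusted p = 4.58e-82) and PFN1 (0.21, 4.45e-46) and the severing factor CFL1 (0.31, 2.46e-65). Of 13 actins and crosslinkers 6 passed upwards, among them ACTN1 (0.30, DESeq2 adjusted p = 2.87e-88) and ACTB (0.22, 1.05e-93), and 2 downwards. The 2 that fell, named after their values were seen, were FSCN1 (-0.99, DESeq2 adjusted p = 1.38e-13) and PLS3 (-0.17, 7.07e-06). ENAH was the only one of 4 Ena/VASP genes to pass (0.11, DESeq2 adjusted p = 3.67e-08). Of the 7 AP-3 adaptor genes, AP3M2 passed upwards (0.17, DESeq2 adjusted p = 0.00476) and AP3S2, given above, downwards. In TPM values neither passed, and AP3M2 was then below 0. Among the genes named by list, WIPF2, WASHC5, DAAM2, ENAH, PFN1, CORO1B, FHOD3 and ABI2 also did not pass in the filtered TPM fits (limma adjusted p of 0.0667 for ABI2 to 0.809 for ENAH on the log2(TPM + 1) scale). With log2(TPM + 1) and no filter, CYFIP2 (0.41, limma adjusted p = 0.0755), ABI3 (0.26, 0.0670), COBL (0.16, 0.368), FMNL1 (0.22, 0.0907) and LMOD3 (0.307) did not pass either. WASHC4 did not pass without GFP replicate 3 (DESeq2 adjusted p = 0.147) or T-MGM replicate 2 (0.15), nor AP3M2 without GFP replicate 1 (0.0554).

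The change of ARPIN was not shared by the genes around it to a like degree. Within 500 kb, 12 genes had a mean of at least 50 normalized counts, with log2 fold changes of -0.31 to 0.70 and a median of 0.19. Of these, 7 passed upwards and 1, AP3S2, downwards, beside 19.2% of all genes tested in each direction. That share was not matched for expression level, on which passing depends, so nothing is read from this count. On the other side of AP3S2 lay PEX11A, a peroxisomal membrane gene, at 0.07 (SE 0.15, DESeq2 adjusted p = 0.802). Beyond the start of ARPIN lay ZNF710, a zinc finger gene, at 0.23 (SE 0.08, DESeq2 adjusted p = 0.0170) and IDH2, the mitochondrial isocitrate dehydrogenase, at 0.30 (SE 0.05, 1.40e-07). The 97 expressed genes within 10 Mb had a median of 0.011.

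**Figure D4:**
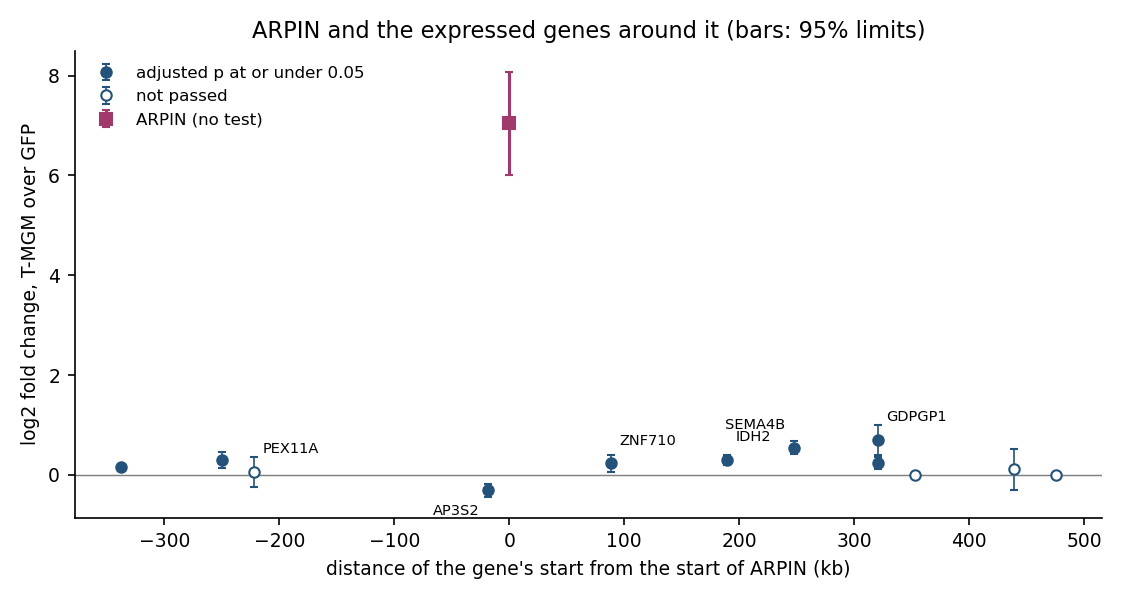
Log2 fold change (vertical axis, T-MGM-labelled over GFP) of ARPIN and 12 expressed genes within 500 kb against the distance of each start site from that of ARPIN in kb. Bars are 95% limits. ARPIN stands at 7.04 and the other genes lie between -0.31 and 0.70.

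The 5 genes whose levels over the 6 libraries were nearest to those of ARPIN, by Euclidean distance in log2(normalized count + 1), were MAGEA10 on chromosome X (distance 2.19), CACNA2D1 on chromosome 7 (2.67), OPRD1 on chromosome 1 (2.97), LONRF3 on chromosome X (3.45) and GALNT18 on chromosome 11 (3.84). Like ARPIN, all had few or no reads in GFP, with means of 2.22 to 10.2 normalized counts, and 102 to 723 in T-MGM-labelled libraries. This likeness follows from picking the 5 genes by their nearness to ARPIN. MAGEA10, a cancer-testis antigen gene, shared the high value in the second GFP library, with 0, 8.66 and 1.14 normalized counts there and 164, 212 and 207 in T-MGM-labelled libraries. None of the 5 is an actin gene.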

How the data were processed

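Gene counts and TPM values of 6 WM164 libraries were used as the authors deposited them. The authors trimmed reads with cutadapt 1.8.1 and aligned them to GRCh38 with STAR 2.7.7a, and the deposited TPM values are from RSEM 1.3.0 (versions from the submitters' processing notes). Their methods name featureCounts on uniquely aligned reads. The deposited counts are whole numbers, but genes whose exons lie almost wholly in another gene hold reads (123 of 1043 such genes have a mean of at least 100), so they were treated as estimated counts that the authors may have rounded. The annotation release is not given in the sources used here. The labels name a kit without strand and the methods one with strand.

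All genes were fitted with DESeq2 1.42.0 (R 4.3.3, median-of-ratios size factors, 2-sided Wald test, Benjamini-Hochberg over 19135 genes), checked on simulated data. Genes passed at an adjusted p of 0.05. Normalized counts are counts divided by these factors. SDs and means are over 3 libraries. TPM was tested with limma 3.58.1 on log2 values plus 1 or 0.1, and edgeR 4.0.16 was an alternative. Within-group library correlations were 0.991 to 0.994 and no pair agreed within sampling noise. Positions are from GENCODE release 44.

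The members and lists were chosen with earlier results of these data known. Named genes were all members, genes overlapping them, the 2 nearest expressed neighbours on each side of ARPIN, the 5 nearest profiles, and from each list every gene over 2-fold and the 3 passing genes of smallest p with a mean of at least 100 normalized counts. Some genes and groups that this rule names are not reported here.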

Additional observations from a re-analysis of the deposited data

How the results depend on the processing

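ARPIN stayed higher under every alternative tried. Its log2 fold change was 6.99 to 7.07 under other scalings, filters, edgeR and the GC and length offsets, 6.65 to 8.42 when 1 library was left out, 3.59 with log2(TPM + 0.1) and 1.14 with log2(TPM + 1), where the pseudocount limits it. With 1 to 6 GFP reads a library, counting error alone leaves its fold between 64.0 and 293. Over the 3 genes of the locus it was 0.54, and 0.42 in TPM. The sum with ARPIN-AP3S2 alone (3.25) was added after the data were examined. ARPIN-AP3S2 ranged from 1.98 to 3.72 when 1 library was left out.

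Subunits that passed numbered 6 under every left-out library, 7 with total-count scaling, 9 in each TPM fit and 4 with GC and length offsets. These counts stand without the shares of all genes that passed under the same settings. Signs turned for these values, and the cause was not tested. With the GC and length offsets ACTR2 (0.078), ARPC1A (-0.033), ARPC1B (-0.11), ARPC2 (0.014), ARPC3 (0.020), PICK1 (-0.041) and WASHC4 (0.053) reversed. Total-count scaling gave -0.051 for ARPC1A and -0.053 for ARPC1B. The TPM fits gave -0.15 for ARPC1A, -0.17 for ARPC1B, -0.031, -0.033 and -0.031 for AP3M2 and -0.021, -0.025 and -0.021 for PICK1. A minimum of 10 counts gave -0.00093 for ARPC1B. With 1 library left out, ARPC1A ranged from -0.015 to 0.024 and ARPC1B from -0.014 to 0.022.

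Of the list genes, 76 passed, 68 to 71 with 1 library left out and 44 with log2(TPM + 1) unfiltered. Over all genes, 885 were over 2-fold, 624 higher and 261 lower. In the TPM fits these were 133 (70 higher, 63 lower), 369 (204 and 165) and 126 (66 and 60), where the pseudocount compresses low values. With 1 library left out they were 765 to 810. The paper names DESeq2 with these thresholds and reports fewer differentially expressed genes for this comparison than the 885 found here. The source of that difference was not tested.

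The fit with the replicate number as a block gave 735 genes over 2-fold, 6 subunits, 65 list genes and 7.06 for ARPIN. Deviations of same-numbered libraries correlated at -0.0067, -0.058 and 0.029, and no GFP library correlated best with its own number, so the numbers do not pair the libraries. The paired fit is given for that reason only here.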
